A study of Mus musculus with 14 samples.

Results

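The cytochrome P450 genes of the mouse were described in the chromatin of cardiomyocyte-enriched cells. Members were all protein-coding genes of the mm10 annotation (assembly GRCm38.p6) whose symbol is Cyp followed by a number, which gave 99 of 21883 protein-coding genes on chromosomes 1 to 19, X and Y. Each was taken with 2500 bp either side of its body, and this stretch is called its window. By position, 68 genes lay in 7 large clusters, each with at least 4 genes of the family Cyp2, Cyp3 or Cyp4 and at most 500 kb between neighbours. A further 24 genes were single, with no other Cyp gene within 500 kb, and 7 lay in small groups (Cyp11b1 with Cyp11b2, Cyp26a1 with Cyp26c1, and Cyp1a1, Cyp1a2 and Cyp11a1).

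The cells came from C57BL/6J mice, either with sham in the library title and listed with no treatment, or 1 week after transverse aortic constriction (TAC), a surgical narrowing of the aorta that loads the left ventricle. Chromatin was immunoprecipitated with antibodies against G9a, a histone methyltransferase that writes H3K9me2, against H3K9me2 itself, and against H3K27me3. Each antibody had 2 biological replicates per condition, which made 12 libraries, and 2 inputs brought the total to 14. The labels give neither the sex and age of the mice nor how many hearts went into a library. The enriched fraction can hold other cells, and a mark in fewer cells cannot be told apart from less of it per cell. The authors deposited, for each antibody, 1 table of regions called different, and each region carries 4 whole numbers, read as 2 pairs of libraries. The tables do not say which pair is sham, so each direction is given as the first or the second pair being higher.

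Cytochrome P450 enzymes are heme proteins that insert oxygen into their substrates. Families Cyp1 to Cyp4 mostly oxidise drugs, pollutants and fatty acids, and their genes often sit in tandem arrays of close paralogs that are most active in the liver. The other families mostly have 1 or a few members with a fixed physiological substrate, such as steroid hormones, bile acids, vitamin D or retinoic acid. In the heart, epoxygenases of the Cyp2j and Cyp2c subfamilies are known for turning arachidonic acid into epoxides that act on vessels and muscle, and Cyp4 enzymes for its hydroxylation. H3K27me3, written by Polycomb complexes, and H3K9me2 are both known as marks of silent genes, H3K27me3 above all at CpG-rich promoters of developmental genes.

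The tables held 388424 regions for G9a, 245088 for H3K9me2 and 552542 for H3K27me3. Read depth is unknown, since the tables give no library totals, and all regions had already passed a p of 0.01 (a −log10 p of at least 2.0) by the authors' test. One library stood apart: the first of the second G9a pair was at 0 in 9.34% of regions, against 0.163% to 1.40% in the other 3. Of 8 cardiomyocyte genes (Myh6, Tnnt2, Tnni3, Actc1, Ryr2, Ttn, Pln and Nkx2-5), 0 had an H3K27me3 region in the window in either direction and 6 had no H3K9me2 region. Of all protein-coding genes, 66.7% had an H3K27me3 and 58.1% an H3K9me2 region of either direction. H3K27me3 regions lay at 5 of 6 hepatocyte genes, at all 4 endothelial, 4 fibroblast and 4 smooth muscle genes, and at 3 of 4 leukocyte genes, counts too small to be set apart from that share. These regions mark a difference between pairs, not the presence of a cell type, and the part of other cells in the results was not tested.

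Of the 99 genes, 77 had a start site among the RefSeq promoter sequences (GRCm38.p6), with 87 promoters of 300 bases, 250 before and 50 after the start. The letters CG (a CpG, the same on both strands) were counted in each. The median over 21262 promoters of 17491 genes was 13 CpGs, against 3 at Cyp promoters, 2 in the large clusters and 6 at single genes. At least 10 CpGs stood in 56.7% of all promoters and in 11.5% of Cyp promoters, of which 2 of 63 lay in large clusters and 7 of 18 at single genes. A CG occurred at least once in 95.4% of all promoters. Promoters of 6 genes follow with their CpG counts and each CG in capitals. They were chosen because the first 3 lay in H3K27me3 regions higher in the second pair and the last 3 in second-pair H3K9me2 regions. Of the first 3, Cyp26b1 had fewer than 10 CpGs, below the median of 13. The Cyp4a30b promoter lay in a second-pair region of both marks.
Cyp26a1 (chr19:37697558-37697857, + strand, 26 CpGs): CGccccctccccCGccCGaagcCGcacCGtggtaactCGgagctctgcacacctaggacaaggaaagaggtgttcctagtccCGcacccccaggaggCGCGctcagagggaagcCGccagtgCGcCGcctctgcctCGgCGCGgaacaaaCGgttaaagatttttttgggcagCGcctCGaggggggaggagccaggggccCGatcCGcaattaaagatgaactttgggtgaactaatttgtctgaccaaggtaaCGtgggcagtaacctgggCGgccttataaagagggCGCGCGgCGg
Cyp26b1 (chr6:84593761-84594060, - strand, 9 CpGs): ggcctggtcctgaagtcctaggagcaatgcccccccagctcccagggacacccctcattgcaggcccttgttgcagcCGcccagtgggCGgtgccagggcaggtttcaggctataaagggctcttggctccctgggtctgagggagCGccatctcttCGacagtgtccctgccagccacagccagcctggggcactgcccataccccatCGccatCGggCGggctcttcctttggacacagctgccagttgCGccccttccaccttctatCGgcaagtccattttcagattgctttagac
Cyp2s1 (chr7:25816476-25816775, - strand, 17 CpGs): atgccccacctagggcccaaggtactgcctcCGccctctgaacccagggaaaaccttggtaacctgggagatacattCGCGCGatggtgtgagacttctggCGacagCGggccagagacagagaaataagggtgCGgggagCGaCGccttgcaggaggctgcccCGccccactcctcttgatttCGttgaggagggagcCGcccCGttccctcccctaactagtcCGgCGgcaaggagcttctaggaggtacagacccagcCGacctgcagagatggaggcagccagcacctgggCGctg
Cyp2b9 (chr7:26173159-26173458, + strand, 3 CpGs): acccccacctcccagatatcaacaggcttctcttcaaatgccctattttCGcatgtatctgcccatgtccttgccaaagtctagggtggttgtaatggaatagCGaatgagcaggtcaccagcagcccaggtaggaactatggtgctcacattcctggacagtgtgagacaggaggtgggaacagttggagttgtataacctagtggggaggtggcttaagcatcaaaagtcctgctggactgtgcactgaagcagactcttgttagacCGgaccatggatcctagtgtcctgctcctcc
Cyp4a30b (chr4:115452354-115452653, + strand, 3 CpGs): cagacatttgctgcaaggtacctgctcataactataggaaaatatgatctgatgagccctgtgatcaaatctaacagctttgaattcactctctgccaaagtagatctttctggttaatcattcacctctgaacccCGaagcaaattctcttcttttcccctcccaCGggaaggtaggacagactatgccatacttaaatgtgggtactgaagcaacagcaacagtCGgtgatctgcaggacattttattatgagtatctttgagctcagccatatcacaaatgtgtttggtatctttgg
Cyp2a12 (chr7:27028840-27029139, + strand, 1 CpGs): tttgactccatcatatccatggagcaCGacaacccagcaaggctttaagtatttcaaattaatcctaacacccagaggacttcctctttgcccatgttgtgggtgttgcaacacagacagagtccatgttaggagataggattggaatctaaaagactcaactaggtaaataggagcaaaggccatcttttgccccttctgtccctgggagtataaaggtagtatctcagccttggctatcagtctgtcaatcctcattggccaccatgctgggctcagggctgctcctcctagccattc

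Values are given below as the 2 libraries of the first pair against those of the second. At the Cyp26a1 promoter, the authors' deposited table for H3K27me3 gave values of 1765, 1836 against 2577, 1979. The enzyme degrades retinoic acid, as does Cyp26b1. The region over the Cyp26b1 promoter (chr6:84588601-84594650) had 1905, 1867 against 2909, 2474 in the authors' deposited table. At Cyp2s1, an extrahepatic member of a cluster, the H3K27me3 values in the authors' deposited table were 1097, 1040 against 1413, 1557. The 3 differences are small, at 0.34, 0.51 and 0.47 on the log2 scale of pair means (second over first, pseudocount 1), and the pairs did not overlap at any of them. At the last 3 promoters, with 1 to 3 CpGs each, the differences in H3K9me2 were larger on that scale, but at far lower values. Over all genes the median difference of second-pair regions was 0.98 in H3K9me2 and 0.82 in H3K27me3. The 6 promoters were picked by their regions, so this is no contrast of CpG content or of marks. The Cyp4a30b promoter, with 3 CpGs, had 166, 91 against 456, 300 in the authors' deposited table, for a log2 difference of 1.55. For Cyp2a12, with 1 CpG, the authors' deposited table listed 73, 199 against 446, 254 (1.36), and for Cyp2b9, with 3 CpGs, 41, 19 against 67, 116 (1.58). All 3 were higher in both second-pair libraries than in either first-pair library. The H3K27me3 region over the Cyp4a30b promoter had 267, 117 against 332, 271 in the authors' deposited table (0.65 on the log2 scale). G9a regions also lay over 4 of the 6 promoters, higher in the second pair at Cyp26b1, Cyp2s1 and Cyp2a12. The pairs overlapped at Cyp26b1 but not at Cyp2s1 and Cyp2a12. At Cyp26a1 the G9a region was higher in the first pair, with 156, 417 against 21, 240 in the authors' deposited table, and its pairs overlapped.

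Over all promoters, 2.46% overlapped a second-pair H3K9me2 region. Among Cyp promoters this was 12 of 87 (13.8%), with 11 of 63 in the large clusters (17.5%) and 1 of 18 at single genes. Second-pair H3K27me3 regions overlapped 22.8% of all promoters, 16 of 63 in the clusters (25.4%), 8 of 18 at single genes (44.4%) and 4 of 6 in small groups. Cyp promoters exceeded all promoters in first-pair regions as well. First-pair H3K27me3 regions overlapped 14 of 87 Cyp promoters (16.1%) against 6.65% of all, and first-pair H3K9me2 regions 4 (4.6%) against 2.87%. Low CpG content went with listed regions in general, not with H3K9me2 alone. Among promoters under 10 CpGs, second-pair H3K9me2 regions overlapped 4.46% of all and 15.6% of the Cyp ones. Among those with 10 or more, they overlapped 0.928% of all and 0 of 10 Cyp ones. Second-pair H3K27me3 regions overlapped 28.1% of all promoters under 10 CpGs and 18.7% of the rest, and second-pair G9a regions 14.6% and 10.6%. Of Cyp promoters, second-pair H3K27me3 regions overlapped 24 of 77 under 10 CpGs and 4 of 10 with 10 or more. These shares are descriptions, since promoters of 1 cluster share their neighbourhood and some share a region.

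Most Cyp genes had regions in both directions. With a background of 76.7% of all protein-coding genes, 88 of 99 Cyp genes (88.9%) had a G9a region higher in the first pair, and 85 (85.9%) had 1 higher in the second pair, where the background was 55.5%. For H3K9me2 the count was 77 genes (77.8%) in each direction, against 48.2% of all genes for the first pair and 38.8% for the second. For H3K27me3 it was 85 genes (85.9%) in each direction, against 58.3% and 50.5%. Cyp genes are somewhat longer than others, with a median of 22.5 kb against 17.2 kb, and a longer window meets a region more readily. Cyp2u1, a fatty acid hydroxylase gene on chromosome 3, was the 1 member with no region in any table, while Cyp2c39, Cyp7b1 and Cyp19a1 had 123, 117 and 97. The annotated body of Cyp2c39 contains that of Cyp2c38, so the 2 genes share regions.

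Counts per 100 kb of window allow for gene length only in part, since a region that meets a window at all counts in full. Sets of short genes gain by this, such as Cyp2d (median 4.43 kb) and the small groups (6.75 kb). By this measure, H3K9me2 regions higher in the second pair were more frequent in the large clusters than anywhere else in the comparison. There were 11.8 per 100 kb in clusters, 4.29 at single genes and 3.09 over all genes. In the other direction the values were 8.0, 5.12 and 4.20. H3K27me3 regions were also frequent at Cyp genes, with 17.9 first-pair regions per 100 kb in clusters, 13.6 at single genes and 8.98 over all genes, and with 13.0, 16.4 and 8.21 for the second pair. For G9a the values were 9.80, 9.17 and 8.38 for the first pair and 7.19, 11.3 and 6.20 for the second, so that single genes exceeded clusters in second-pair regions, also without Cyp7b1 and Cyp19a1 (12.6). Leaving out the longest genes kept the order for H3K9me2: without Cyp2c39 the clusters had 11.6 second-pair regions per 100 kb, and without Cyp7b1 and Cyp19a1 the single genes had 2.34. For second-pair H3K27me3 the order turned, with 13.6 in the clusters without Cyp2c39 and 12.4 at single genes without the other 2.

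**Figure D1:**
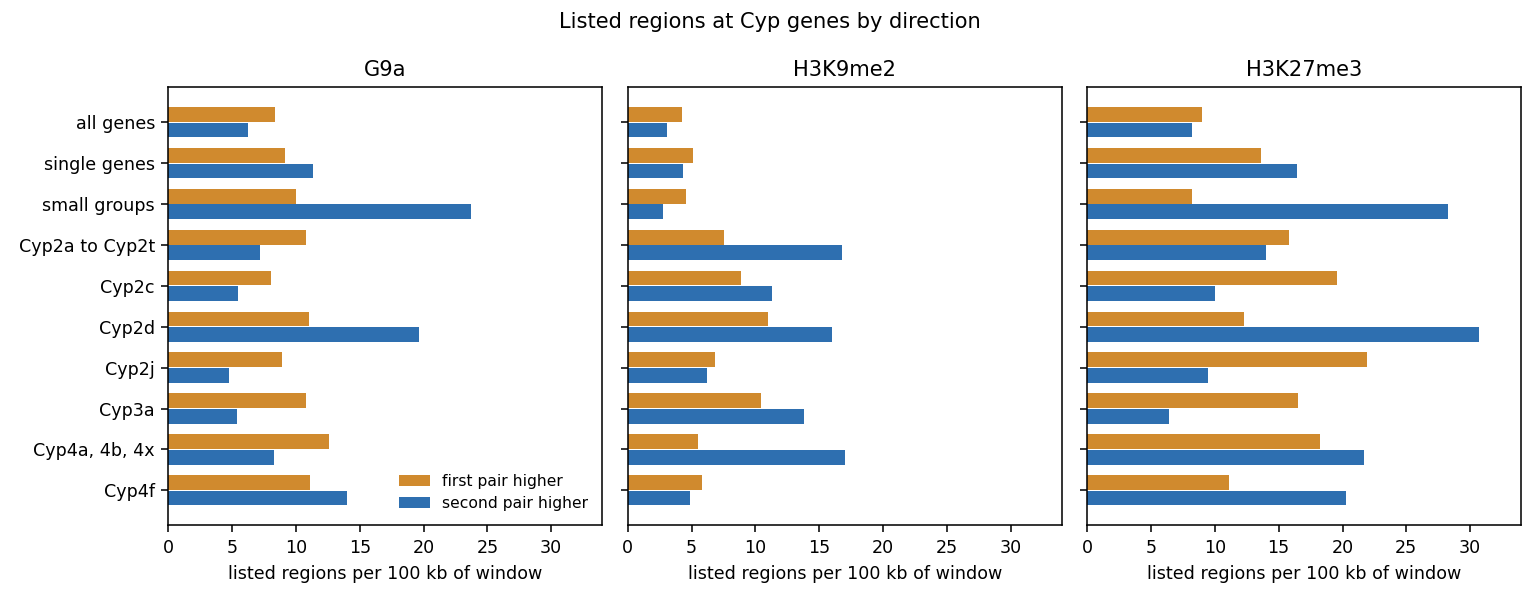
Listed regions per 100 kb of window (x axis) for G9a, H3K9me2 and H3K27me3, with 1 row each for all protein-coding genes, single Cyp genes, small groups and the 7 large clusters; orange bars are regions higher in the first pair and blue bars regions higher in the second. Second-pair H3K9me2 regions reach 16.8 in the Cyp2a to Cyp2t cluster and 17.0 in the Cyp4a, 4b, 4x cluster against 3.09 over all genes, and second-pair H3K27me3 regions reach 30.7 in the Cyp2d cluster and 28.3 in the small groups against 8.21.

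Among genes with a fixed physiological substrate, all 3 of vitamin D, all 3 of retinoic acid and all 6 of steroid hormones had an H3K27me3 region higher in the second pair, against 50.5% of all genes. The share was 85.9% of all Cyp genes and 59 of 68 in the large clusters (86.8%), so these counts are near that of Cyp genes as a whole. Only 3 of 6 bile acid and sterol genes had such a region, and Cyp51 had none. At Cyp24a1, which breaks down active vitamin D, the authors' deposited table listed a region at chr2:170487451-170502150 with 5459, 5508 in the first pair against 8728, 8944 in the second. A neighbouring one at chr2:170473751-170486850 had 4544, 4450 against 7542, 7221 in the authors' deposited table. Both values of the second pair were higher than both of the first in each region, and the 2 libraries of a pair lay close together. Their log2 differences were 0.69 and 0.71. Together they covered 96.9% of the Cyp24a1 window, and the first region also reached the neighbouring gene Pfdn4. Cyp27b1, which makes active vitamin D, had 2587, 2217 against 3923, 3107 in the authors' deposited table, and second-pair regions covered 73.1% of its window, shared with Mettl1 and Marchf9. Cyp2r1, which performs the first activating step, had a region with lower values, 69, 16 against 231, 85 in the authors' deposited table. Of the 3 vitamin D genes, 2 had a first-pair H3K27me3 region too.

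The 3 genes that clear retinoic acid were alike in this. Cyp26b1 had an H3K27me3 region at chr6:84581301-84588250 with 1277, 2344 in the first pair against 3771, 3322 in the second, by the authors' deposited table. The region between Cyp26c1 and Cyp26a1 (chr19:37690001-37696000) had 2003, 1708 against 3399, 3203 in the authors' deposited table. In both regions the second pair was higher in each library, with log2 differences of 0.97 and 0.83. Second-pair regions covered 87.5% of the Cyp26a1 window, 85.3% of Cyp26b1 and 78.5% of Cyp26c1, while first-pair regions covered 0%, 2.18% and 0%. Cyp26c1 had no G9a or H3K9me2 region, and Cyp26a1 had no H3K9me2 region.

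Beside their second-pair H3K27me3 regions, 3 of the 6 steroid hormone genes had a first-pair region. Cyp21a1, an adrenal steroid hydroxylase, lay wholly inside 1 region (chr17:34797201-34808550) with 2610, 2770 against 5529, 4755 in the authors' deposited table, for a log2 difference of 0.93. At Cyp19a1, the aromatase that makes oestrogens, 39 second-pair and 5 first-pair H3K27me3 regions were listed, and the former covered 69.7% of its window. The one with the smallest p (chr9:54227401-54234050) had 1335, 1327 against 2987, 2377 in the authors' deposited table. In both regions the second-pair libraries differed more from each other than the first-pair libraries did. Cyp11a1, which starts steroid synthesis from cholesterol, had 2086, 1799 against 2720, 3020, and Cyp17a1, of androgen synthesis, had 807, 1074 against 1561, 1708 in the authors' deposited table. The corticosterone gene Cyp11b1 had 1166, 793 against 1773, 1667 in the authors' deposited table. For the aldosterone gene Cyp11b2 the authors' deposited table gave 960, 1175 against 1748, 1413. The pairs did not overlap at any of these 6 genes' leading second-pair regions, whose log2 differences ran from 0.56 to 1.01. Second-pair H3K27me3 regions over all genes had a median of 0.82, near these differences and those given for Cyp24a1 and the Cyp26 genes in the last 2 paragraphs.

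Over 50% of the window lay in second-pair H3K27me3 regions at 23 of 99 Cyp genes (23.2%), against 12.5% of all protein-coding genes. Of the single genes and small groups this held for 12 of 31 (38.7%), namely Cyp27b1, Cyp21a1, Cyp1b1, Cyp24a1, Cyp26b1, Cyp19a1, Cyp8b1, Cyp11b1, Cyp11b2, Cyp26c1, Cyp26a1 and Cyp11a1. In the large clusters it held for 11 of 68 (16.2%). Of those, 5 were in the Cyp2d cluster, 3 in Cyp4f (Cyp4f37, Cyp4f40 and Cyp4f15), and the others were Cyp4x1, Cyp2b10 and Cyp2f2. In the Cyp2c, Cyp2j and Cyp3a clusters it was 0 of 14, 0 of 7 and 0 of 8 genes. No Cyp gene had over 50% of its window in first-pair regions, where Cyp1a2 was highest at 47.8%. Counting only regions whose pairs do not overlap left 18 of the 23 genes.

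**Figure D2:**
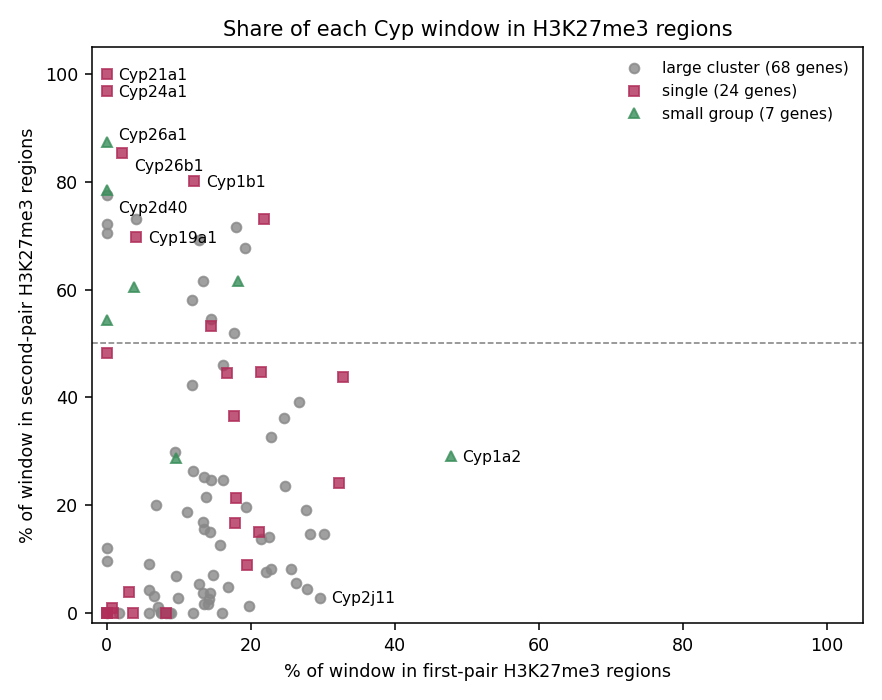
Each point is 1 Cyp gene, placed by the percentage of its window inside H3K27me3 regions higher in the first pair (x axis) and in the second pair (y axis), with squares for 24 single genes, triangles for 7 genes in small groups and grey circles for 68 genes in large clusters; the dashed line marks 50%. Cyp21a1 at 100% and Cyp24a1 at 96.9% of the window stand at the top left, and Cyp1a2 has the largest first-pair share at 47.8%.

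The split of H3K27me3 regions between directions ranged widely over the clusters. The Cyp2c cluster on chromosome 19, of epoxygenases and drug oxidases, had 151 first-pair and 77 second-pair regions. For the Cyp2j cluster on chromosome 4 the counts were 74 and 32, and for the Cyp3a cluster on chromosome 5, whose enzymes oxidise many drugs, 49 and 19. The order was the other way in the Cyp2d cluster on chromosome 15, with 10 and 25, and in the Cyp4f cluster on chromosome 17, with 23 and 42. The Cyp4a, Cyp4b and Cyp4x cluster on chromosome 4 had 46 and 55, and the cluster of Cyp2a, Cyp2b, Cyp2f, Cyp2g, Cyp2s and Cyp2t on chromosome 7 had 44 and 39. Over all genes 52.2% of H3K27me3 regions were higher in the first pair, against 66.2% in Cyp2c, 69.8% in Cyp2j, 72.1% in Cyp3a and 28.6% in Cyp2d. No test was made of these splits, because the regions of a cluster are not independent of each other.

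First-pair H3K27me3 regions had a median log2 difference of −1.01 in Cyp2c, −1.07 in Cyp2j and −1.12 in Cyp3a, near the −0.94 over all genes. Those with the smallest p had much larger differences. At Cyp2j8 (chr4:96462301-96463500) the authors' deposited table for H3K27me3 gave 290, 452 in the first pair against 38, 36 in the second, for a log2 difference of −3.29. At the epoxygenase gene Cyp2j6 the values in the authors' deposited table were 174, 191 against 3, 0. At Cyp3a44 (chr5:145784951-145786750) they were 456, 449 against 115, 65 in the authors' deposited table. All 3 regions had a wide gap between the pairs. Of the 8 Cyp3a genes 4 had a second-pair H3K27me3 region and all 8 a first-pair one. The shares were 86.8% and 91.2% of all large-cluster genes, and 50.5% and 58.3% of all protein-coding genes. In Cyp2c and the other 4 clusters the region with the smallest p was higher in the second pair. At Cyp2c70 (chr19:40159701-40162100) the authors' deposited table had 264, 92 against 632, 477. At Cyp4f39 (chr17:32490401-32493750) the authors' deposited table listed 438, 282 against 1379, 933. Cyp4x1, an orphan enzyme gene, had 1215, 1367 against 2644, 2262 in the authors' deposited table. At Cyp2d12 (chr15:82556801-82561000) it listed 787, 562 against 1626, 1497, in the authors' deposited table for H3K27me3. Cyp2b10, a gene induced by phenobarbital-like drugs in the liver, had 1182, 719 against 1961, 1762 in the authors' deposited table. In all 5 both second-pair values were above both first-pair values.

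In H3K9me2 the clusters as a whole had 178 first-pair and 262 second-pair regions, so 40.5% were higher in the first pair against 57.6% over all genes. The chromosome 7 cluster had 21 and 47 and the Cyp4a, Cyp4b and Cyp4x cluster 14 and 43, the 2 most uneven splits. The split was 68 and 87 in Cyp2c, 31 and 41 in Cyp3a, 9 and 13 in Cyp2d, 23 and 21 in Cyp2j and 12 and 10 in Cyp4f. Of the 68 cluster genes 67 had an H3K9me2 region, against 17 of 24 single genes (70.8%), a difference of 27.7 percentage points, and 58.1% of all protein-coding genes had one. A G9a region of either direction lay at 66 of 68 cluster genes and 23 of 24 single genes, against 84% of all genes. All 10 genes of the Cyp4a, Cyp4b and Cyp4x cluster had a second-pair H3K9me2 region, and 8 had a first-pair one. This is near the 91.2% and 86.8% of all large-cluster genes, where the shares of all protein-coding genes were 38.8% and 48.2%. Every gene of the Cyp2c, Cyp2j and Cyp3a clusters had a second-pair H3K9me2 region too. Second-pair regions covered 41.3% of the Cyp2a12 window and 41.0% of that of Cyp2d34, the highest shares, and over 50% of no Cyp window.

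The H3K9me2 region with the second smallest p at a Cyp gene, and the smallest among those higher in the second pair, lay in Cyp2b9 (chr7:26207251-26210350). The authors' deposited table gave it 334, 191 in the first pair against 676, 745 in the second, for a log2 difference of 1.43. Cyp27a1, a mitochondrial sterol hydroxylase of bile acid synthesis, had 112, 140 against 294, 615 in the authors' deposited table. At Cyp2c29, an epoxygenase of the liver, the values were 109, 65 against 473, 239 in the authors' deposited table (chr19:39304801-39306350). In these 3 regions the pairs did not overlap. The leading first-pair regions were in Cyp2c39, Cyp3a13 and Cyp2c40. Cyp2c39 had 413, 616 against 170, 100 in the authors' deposited table (chr19:39353851-39355700). Cyp3a13, a single gene apart from the Cyp3a cluster, had 120, 215 against 0, 11 in the authors' deposited table. For Cyp2c40 the authors' deposited table gave 209, 108 against 2, 20. The second pair was near 0 in both of the last regions.

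**Figure D3:**
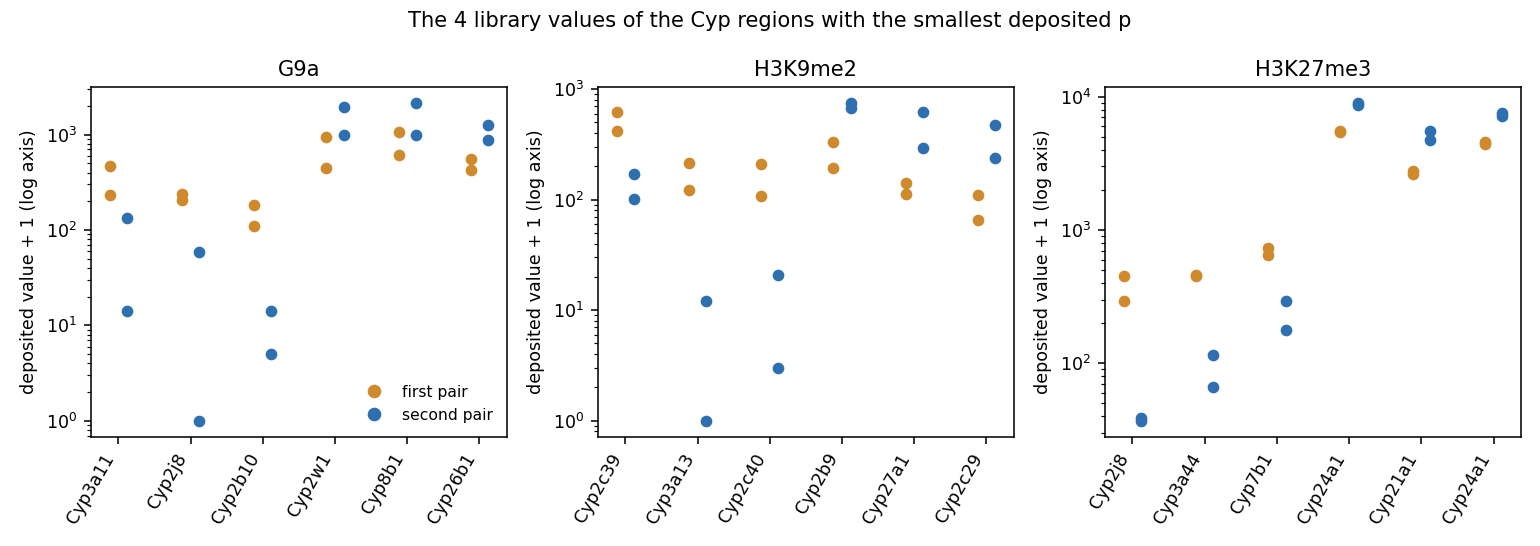
The 4 library values, plus 1, on a log axis for the 3 Cyp regions with the smallest deposited p in each direction and table, with orange points for the first pair and blue points for the second; the x axis names the gene, and Cyp24a1 appears with 2 regions. Values at Cyp24a1 run from 4450 to 8944 with libraries of a pair close together, while at Cyp3a13 in H3K9me2 the second pair is at 0 and 11; at Cyp8b1 in G9a the pairs overlap.

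Over all genes 57.5% of G9a regions were higher in the first pair, and the clusters together stood at 57.7%. The Cyp3a cluster, with 32 first-pair and 16 second-pair regions, and Cyp2j, with 30 and 16, were above that share at 66.7% and 65.2%. Cyp2d, with 9 and 16, and Cyp4f, with 23 and 29, were below it at 36.0% and 44.2%. The other 3 clusters were near it, at 59.6% to 60.4%. Single genes had 77 and 95 (44.8%) and small groups 11 and 26 (29.7%). These splits were not tested. Second-pair G9a regions covered over 50% of the window at Cyp8b1 (78.3%), Cyp24a1 (59.4%), Cyp17a1 (59.1%), Cyp21a1 (55.1%) and Cyp2d10 (51.5%). The first 4 of these are single genes. The share of all protein-coding genes over 50% was not counted for G9a, so whether these genes stand apart was not tested.

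The pairs did not overlap at 61.3% of all G9a regions, fewer than the 67.9% of H3K9me2 and 69.2% of H3K27me3. At Cyp2w1 (chr5:139351801-139356250) the authors' deposited table gave 445, 939 in the first pair against 1942, 983 in the second. At Cyp8b1, of bile acid synthesis, it was 609, 1067 against 2137, 990 in the authors' deposited table, so the pairs overlapped. At Cyp26b1 (chr6:84567451-84571300) the values in the authors' deposited table were 553, 422 against 1257, 867. At Cyp2w1 the lower second-pair value was close to the higher first-pair value, and at Cyp26b1 the pairs lay further apart. The brain cholesterol hydroxylase gene Cyp46a1 had 228, 164 against 573, 591 in the authors' deposited table (chr12:108353351-108355250), with libraries of a pair close together. In the first-pair direction, Cyp3a11, the main Cyp3a enzyme of the mouse liver, had 233, 471 against 13, 133 in the authors' deposited table. Cyp2b10 had 110, 181 against 4, 13, and Cyp2j8 had 205, 239 against 0, 58 in the authors' deposited table. At all 3 the lower second-pair value belongs to the library with many zeros. Without it, 87 Cyp genes had a first-pair and 90 a second-pair G9a region, and without the other library of that pair 90 and 76.

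Large clusters were compared with single genes library by library, as the log2 ratio of the summed value per kb of listed region. In G9a this was 0.09 and 0.14 for the first pair but −0.57 and −0.21 for the second, and the pair means differed by −0.51. In H3K9me2 it was −0.12 and −0.05 against 0.14 and 0.10, a difference of 0.21. In H3K27me3 it was −0.22 and −0.29 against −0.65 and −0.65, a difference of −0.39. These shifts restate the mix of regions in each class and support nothing beyond it: first-pair regions made up 57.7% in clusters against 44.8% at single genes in G9a, 40.5% against 54.4% in H3K9me2, and 57.9% against 45.2% in H3K27me3. An exact two-sided permutation test gave p = 0.33 each time, the smallest that 2 against 2 libraries allow, so no difference could pass 0.05. The ratio rests on regions selected for a difference between the pairs and is no level of the mark over whole genes.

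**Figure D4:**
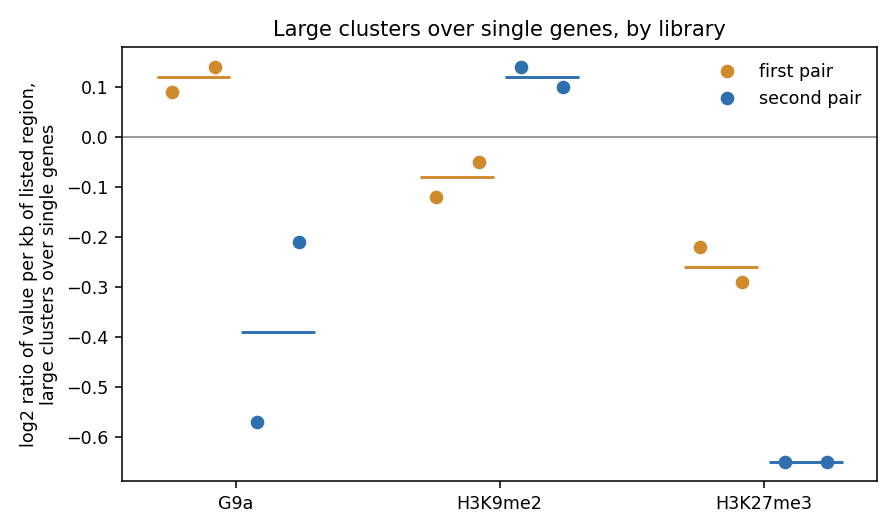
The log2 ratio of the deposited value per kb of listed region in large clusters over single genes (y axis), with 1 point per library, orange for the first pair and blue for the second, and a line at each pair mean. The second-pair points lie below the first-pair points for G9a and H3K27me3 (−0.65 in both H3K27me3 libraries) and above them for H3K9me2.

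Of the aryl hydrocarbon targets, which oxidise planar pollutants, Cyp1b1 had a broad H3K27me3 region with 1887, 2560 against 3756, 2651 in the authors' deposited table. Cyp1a1 had 644, 361 against 1223, 725 in H3K27me3, in the authors' deposited table, and no H3K9me2 region. In G9a, Cyp1a1 had 5, 179 against 309, 307 in the authors' deposited table. All 3 of these genes had G9a and H3K27me3 regions in both directions, and Cyp1a2 alone of them had H3K9me2 regions, 3 in number and each higher in the first pair. Regions in both directions lay at 78.8% of all Cyp genes in G9a and 74.7% in H3K27me3. Of all protein-coding genes the shares were 48.3% and 42.0%.

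Among epoxygenases and related Cyp2 genes, Cyp2j6 had 6 first-pair and 0 second-pair H3K27me3 regions, whereas Cyp2j9 had 4 and 5. At Cyp2j9 the authors' deposited table gave 91 and 100 against 227 and 247 for its leading second-pair H3K27me3 region. Its leading first-pair region had 383, 142 against 161, 57 in the authors' deposited table, and there the pairs overlapped. Cyp2c23 (also called Cyp2c44), a renal epoxygenase gene apart from the Cyp2c cluster, had an H3K9me2 region in its flank with 88, 125 against 5, 4 in the authors' deposited table. Cyp2e1, which oxidises ethanol, had 703, 337 against 1200, 1072 in H3K27me3 and 109, 72 against 169, 219 in H3K9me2, by the authors' deposited tables. Among the leading second-pair H3K27me3 regions of these 7 genes, that of Cyp2s1 had the largest log2 difference (2.46), with 14, 134 against 344, 477 in the authors' deposited table. Its G9a region over the promoter had 27, 188 against 376, 419 in the authors' deposited table.

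Of the 5 fatty acid hydroxylases, all 5 had a second-pair H3K9me2 region and 4 a first-pair one. All 5 had H3K27me3 regions in both directions. In G9a, all 5 had a first-pair region and 2 a second-pair one. Among all Cyp genes the shares were 77.8% in each direction for H3K9me2 and 85.9% for H3K27me3. For G9a they were 88.9% for the first pair and 85.9% for the second. Of all protein-coding genes, 38.8% had a second-pair H3K9me2, 50.5% an H3K27me3 and 55.5% a G9a region. So few genes cannot be set apart from the Cyp shares. Cyp4a14, induced by lipid-sensing receptors in the liver, had 128, 17 against 203, 207 in H3K9me2 in the authors' deposited table. Cyp4b1 had 87, 31 against 217, 138 in H3K9me2, and Cyp4a10 had 59, 69 against 217, 206 in H3K27me3, by the authors' deposited tables. The pairs did not overlap in these 3. At Cyp4v3, a single gene, a first-pair H3K27me3 region had 311, 159 against 64, 15 in the authors' deposited table.

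All 6 bile acid and sterol genes had a first-pair H3K27me3 region, near the 85.9% of all Cyp genes, where 58.3% of all protein-coding genes had one. Cyp27a1, Cyp7a1 and Cyp39a1 had no second-pair one. Cyp7b1, an oxysterol hydroxylase gene with a long body, had 42 first-pair and 30 second-pair H3K27me3 regions. Its leading first-pair region (chr3:18199251-18201750) had 736, 648 against 177, 290 in the authors' deposited table. A second-pair region of Cyp7b1 had 441, 406 against 1011, 772 in the authors' deposited table, so both directions lay within 1 gene with no overlap of pairs. In H3K9me2 the authors' deposited table gave Cyp7b1 38, 10 against 234, 192. Cyp7a1, the rate-limiting enzyme of bile acid synthesis, had a G9a region with 4 and 16 against 48 and 176 and an H3K27me3 region with 107, 61 against 4, 6, by the authors' deposited tables. Another G9a region of Cyp7a1 was higher in the first pair, with 168, 132 against 63, 31 in the authors' deposited table. Cyp51, which serves cholesterol synthesis in most cells, had no H3K27me3 region, and its 3 regions in the other tables had no deposited value above 154.

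Regions of different antibodies often overlapped with opposite directions. Of overlapping pairs of Cyp regions (at least 1 bp) this held for 72 of 188 between G9a and H3K9me2 (38.3%, against 43.4% over the whole tables), 183 of 441 between G9a and H3K27me3 (41.5%, against 37.7%) and 166 of 339 between H3K9me2 and H3K27me3 (49.0%, against 45.1%). At Cyp genes such overlaps were thus about as common as in the tables as a whole. Of these, 2 are given, chosen after their values were seen. In Cyp2c39 the G9a region at chr19:39353151-39355800 had 64, 573 against 538, 960 in the authors' deposited table, where the H3K9me2 values given above were higher in the first pair. In Cyp27a1 the G9a region at chr1:74719501-74720700 had 831, 148 against 290, 224 in the authors' deposited table, where H3K9me2 was higher in the second pair. In both cases the G9a pairs overlapped. Without the first library of the first pair, the Cyp27a1 G9a difference changed sign, from −0.93 to 0.79.

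**Figure D5:**
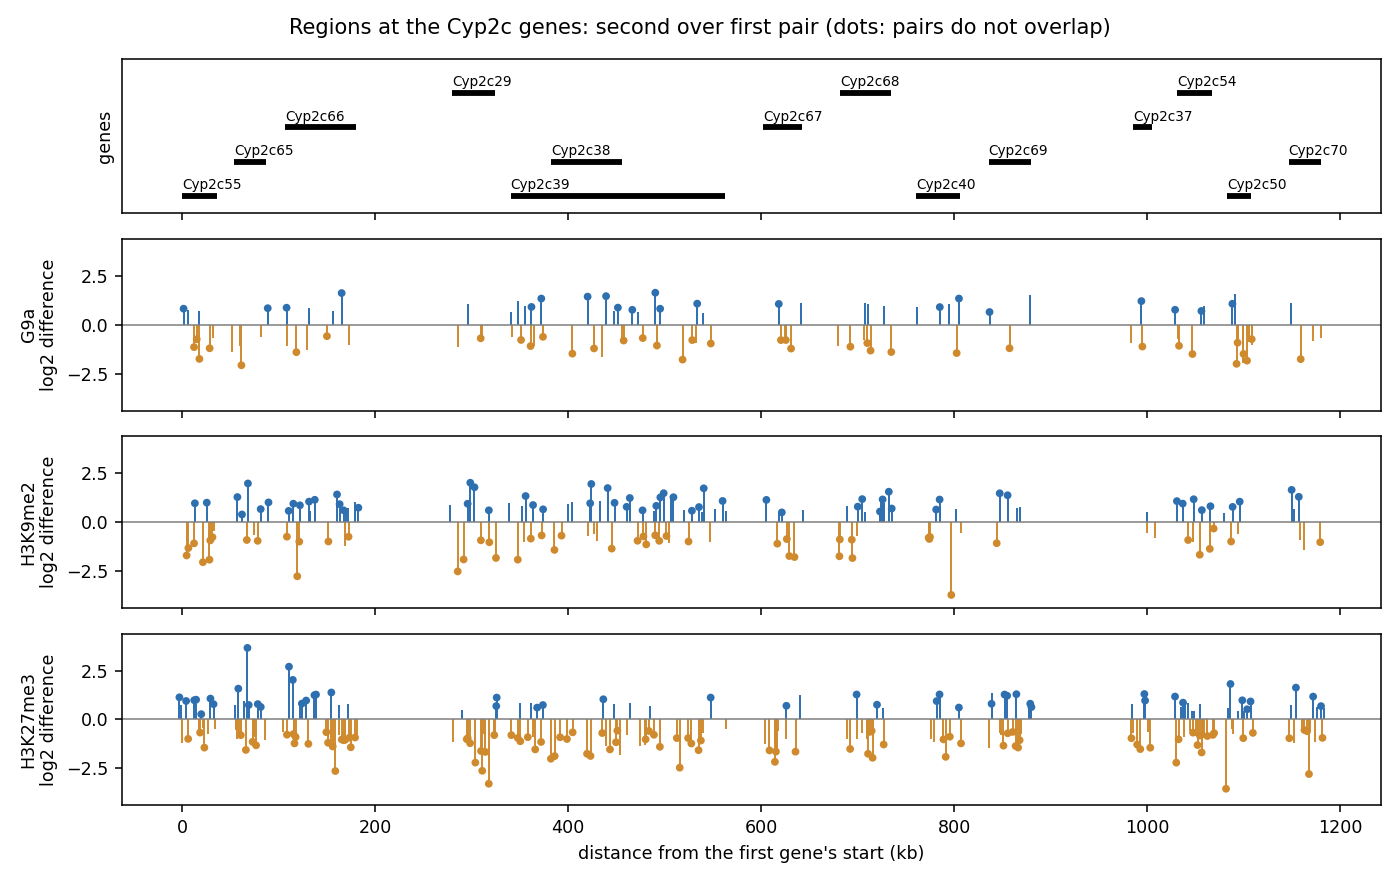
The 14 Cyp2c genes of the cluster as black bars (top) and, below, the log2 difference of each region in their windows (second over first pair, y axis) by distance from the start of the first gene in kb (x axis); dots mark regions whose pairs do not overlap. H3K27me3 has 151 regions below 0 and 77 above, and H3K9me2 68 below and 87 above, spread along the whole cluster.

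Genes that work with P450 enzymes were looked at in the same windows. Of 9 redox partners and heme genes (Por, Cyb5a, Cyb5b, Cyb5r3, Fdx1, Fdxr, Hmox1, Alas1 and Pgrmc1), 6 had a first-pair and 4 a second-pair G9a region, 3 and 2 an H3K9me2 region, and 4 and 3 an H3K27me3 region. Of 9 regulators (Ahr, Arnt, Ahrr, Nr1i2, Nr1i3, Nr1h4, Ppara, Hnf4a and Rxra), 9 and 7 had a G9a region, 6 and 5 an H3K9me2 region, and 6 and 5 an H3K27me3 region. The regulators include the receptors for pollutants, drugs, bile acids and fatty acids that switch Cyp genes on. Of the epoxide hydrolases Ephx1 and Ephx2 with the P450 enzymes Tbxas1 and Ptgis, 4 and 3 had a G9a region, 2 and 2 an H3K9me2 region and 3 and 3 an H3K27me3 region. Over all protein-coding genes the first-pair and second-pair shares were 76.7% and 55.5% in G9a. They were 48.2% and 38.8% in H3K9me2, and 58.3% and 50.5% in H3K27me3. The 3 lists are too small to be set apart from these shares.

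No region passed a test of its own over the libraries. limma on log2(value + 1) over all regions of a table called 0 regions at a Benjamini-Hochberg adjusted p of 0.05 in each table (0.0% of all regions in G9a, 0.0% in H3K9me2 and 0.0% in H3K27me3). For Cyp regions the smallest adjusted p by limma was 0.461 over 587 regions in G9a, 0.389 over 527 in H3K9me2 and 0.299 over 978 in H3K27me3, the last at Cyp2j6. At an unadjusted p under 0.05, limma counted 12 Cyp regions in G9a (2.04%, against 3.94% of all), 50 in H3K9me2 (9.49%, against 8.75%) and 100 in H3K27me3 (10.2%, against 12.3%). The pairs did not overlap at 349 Cyp regions in G9a (59.5%), 358 in H3K9me2 (67.9%) and 659 in H3K27me3 (67.4%), near the shares of the whole tables. Close paralogs such as Cyp3a41a with Cyp3a41b and Cyp4a12a with Cyp4a12b can share reads, which leaves values at cluster genes uncertain, since the treatment of reads with several matches was not given in the sources used here.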

How the data were processed

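The submitters' processing notes name BWA 0.7.10-r789, SAMtools 1.1 and the build mm10 (GRCm38). Libraries were made with a NuGEN Ovation Ultralow kit, per the labels' protocols. No caller, scaling or input correction was given in the sources used here. As 3 tables without header, the authors deposited for each region 4 whole-number values of unstated scaling and a −log10 p. Whether these deposited values are raw counts is not stated, so no count test was used. Regions overlapping a window by at least 1 bp were taken. Differences are log2 of pair means with a pseudocount of 1, which understates the change of low regions. limma 3.58.1 (R 4.3.3) was fitted over all regions of a table and tested on simulated data. Input libraries were not analysed here. P-values over 2 libraries per pair measure only the spread between these libraries.

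Named regions are the 3 with the smallest deposited p in each direction and table, the leading region of each large cluster, and the leading regions of 37 genes listed by role. Genes with regions of 1 direction in all 3 tables (68 for the first pair and 59 for the second) also fell under this rule and were too many to name. The members and lists were chosen with earlier results of these data known. Alternatives varied the window, overlap, p threshold, pseudocount, scaling, cluster definition and libraries.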

Additional observations from a re-analysis of the deposited data

How the results depend on the processing

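No paired analysis was possible because the deposited values carry no replicate numbers. Counts of Cyp genes with a region stayed within 1.5 times the reported count under every alternative tried, as did the count of genes over 50% covered by second-pair H3K27me3 regions, whose 6 alternatives were chosen after seeing the data (18 to 23 genes). The difference between clusters and single genes in the share of genes with a G9a region was 1.2 percentage points and changed sign to −1.7 with the gene body only, −1.7 at a −log10 p of at least 3, −2.0 at 5 and −0.2 with 100 kb between neighbours, so it has no stable direction. The corresponding differences for H3K9me2 and H3K27me3 did not change sign, but with 10000 bp either side of the genes they fell from 27.7 to 12.5 and from 6.9 to 0.0 percentage points, and that for H3K9me2 was 44.1 with the gene body only. The differences between pairs in the log2 ratio of clusters over single genes kept their sign in all 24 alternatives. limma called 0 Cyp regions in all alternatives but 1: without the second library of the second G9a pair it called 65 of 587, all higher in the first pair, where the lone library left is the one with many zeros and is assumed to vary like the others (14.5% of all G9a regions were then called). Of 187 named regions, 173 kept their direction throughout. The direction of the other 14 changed when 1 library was left out, with these ranges of the log2 difference. In G9a they were Cyp20a1 from −0.70 to 2.27, Cyp27a1 from −1.69 to 0.79, Cyp27b1 from −0.12 to 1.49, Cyp11b1 from −0.26 to 1.62, Cyp26a1 from −0.93 to 1.87, Cyp2c29 from −2.87 to 6.54, Cyp4a14 from −3.14 to 0.12 and Cyp1a1 from −5.70 to 0.17. In H3K9me2 they were Cyp20a1 from −2.05 to 0.08, Cyp2j9 from −2.66 to 4.66, Cyp4a10 from −2.93 to 0.10 and Cyp1a2 from −1.80 to 0.03. In H3K27me3 they were Cyp39a1 from −2.56 to 0.84 and Cyp2c29 from −0.02 to 1.25. The cause was not tested.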
